A study of Mus musculus with 4 samples.

Results

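Heat shock proteins and DnaJ proteins are molecular chaperones, which help other proteins to fold, to refold after stress and to cross membranes. Hsp70 proteins bind and release unfolded stretches with the help of DNAJ (Hsp40) co-chaperones and of Hsp110 exchange factors, Hsp90 proteins finish the folding of kinases and receptors, and small heat shock proteins hold unfolded proteins without using ATP. In the cytosol many of these genes are induced by heat shock factor HSF1, while those of the endoplasmic reticulum (ER) are induced by the unfolded protein response. The genes described here were every gene of the count table whose symbol marked it as Dnaja, Dnajb, Dnajc, Hspa, Hspb, Hsp90, Hspd, Hspe or Hsph followed by a number, which gave 73 of 22063 listed genes. They comprised 45 DNAJ genes (4 DNAJA, 13 DNAJB and 28 DNAJC) and 28 heat shock genes (3 Hsp90, 11 Hsp70, 3 Hsp110, 3 of Hsp60 and Hsp10, and 8 small heat shock).

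RNA was sequenced from ID8, a mouse ovarian cancer cell line, to ask how loss of the deubiquitinase USP9X changes the transcriptome. The 2 shCtrl libraries came from cells with a control shRNA, labelled WT for genotype, and the 2 shUSP9X libraries from cells in which Usp9x was knocked down with a lentiviral shRNA. Both groups were grown in serum-containing medium. The supplement of the study lists more than one shRNA against mouse Usp9x. Which of them these libraries carried, whether TGF-β had been added, whether a line was 1 clone or a pool, or whether the replicates were separate cultures was not found in the labels or methods, so p-values measure the spread between these libraries. The shCtrl libraries held 17232006 and 15611363 counts, and those of shUSP9X 19978889 and 17021261. Usp9x itself (chrX:13071498-13173328, GRCm38) stood at 298.1 and 281.6 CPM (counts scaled to a common library size) in shCtrl and at 19.73 and 20.54 CPM in shUSP9X. The groups did not overlap, and the log2 fold change of Usp9x was -3.85 ± 0.06 (SE, edgeR quasi-likelihood test, Benjamini-Hochberg adjusted p = 4.7e-26).

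Markers of the labelled cell type were present. Krt8, Krt18, Krt19, Wt1, Msln and Upk3b, genes of the ovarian surface epithelium and mesothelium, each had between 2572 and 15535 counts in every library, while Krt7 had 0, 0, 2 and 3 counts and Cdh1 57, 26, 52 and 53. Their levels differed between the groups in both directions, with Krt8 at 313.8 and 323.7 CPM in shCtrl and 602.3 and 601.9 CPM in shUSP9X, and Wt1 at 358.1 and 372.6 CPM against 256.5 and 252.4 CPM. Of 10 leukocyte markers, Ptprc (0, 0, 29 and 18 counts), Csf1r (0, 0, 17 and 13 counts) and Cd79a (0, 1, 4 and 2 counts) lay above the floor of detection, 3 counts, in a shUSP9X library, and none did in shCtrl. Ptprc was the most abundant of them in shUSP9X, and Cd3e, C1qa and C1qb were at 0 throughout. The 10 leukocyte markers summed to 0.115 and 0.0632 CPM in shCtrl and to 2.58 and 2.2 CPM in shUSP9X. Of 4 fibroblast markers, Dcn was the most abundant, Lum and Thy1 were at 0, and Pdgfra had 15.69 and 13.6 CPM in shCtrl and 1.72 and 2.315 CPM in shUSP9X. Their sum was 184 and 180.2 CPM in shCtrl against 124.9 and 122.9 CPM in shUSP9X. The part of these differences in the results below was not tested, and in bulk RNA fewer cells of a type and less RNA per cell cannot be told apart.

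Of the 73 chaperone genes, 59 passed the filter on low counts and were tested. The other 14 were at or near 0, with 6 listed at 0 in every library (Dnajb3, Dnajc5b, Dnajc5g, Dnajc6 and Hspb3 among them) and 11 at no more than 3 counts in any. Among those not tested, Hspa1a, one of the pair of heat-inducible Hsp70 genes, was at 0 in both shCtrl libraries and at 5.45 and 2.77 counts in those of shUSP9X. Chaperone transcripts took 1.85% and 1.8% of the whole count of the shCtrl libraries and 1.76% of that of each shUSP9X library. Their summed level was 7191 and 6973 FPKM (a level scaled for transcript length and library size) in shCtrl and 7172 and 7160 FPKM in shUSP9X. These sums overlapped, but the FPKM of all genes summed to 467300 and 463400 in shCtrl and to 497600 and 495800 in shUSP9X. As a share of that total, chaperone genes held 1.54% and 1.5% in shCtrl and 1.44% in each shUSP9X library, without overlap. Sums of FPKM given below were not scaled for this difference in totals. Hsp90ab1 and Hspa8 were the most abundant, 12 genes had a mean above 100 FPKM and 41 had a mean above 10 FPKM. The 5 most abundant genes held 60.5% and 61.1% of the summed chaperone FPKM in shCtrl and 66.9% and 67.2% in shUSP9X.

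**Figure D1:**
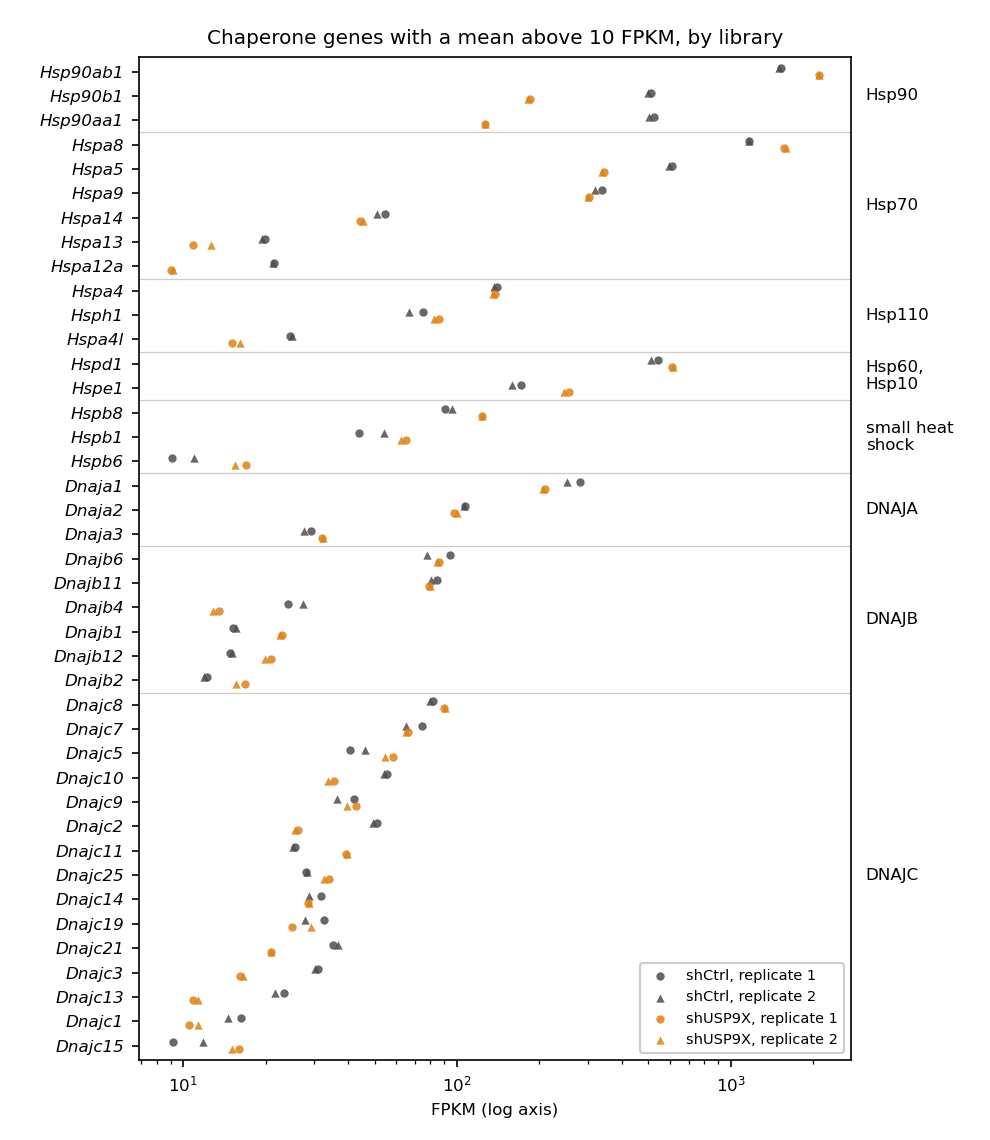
FPKM on a log axis of the 41 chaperone genes with a mean above 10 FPKM, one row per gene and grouped by class, with a point for each of the 2 shCtrl libraries (grey) and 2 shUSP9X libraries (orange). Hsp90ab1 and Hspa8 lie highest and shift right in shUSP9X, while Hsp90aa1, Hsp90b1 and Hspa5 shift left.

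At an adjusted p under 0.05, 19 of the 59 tested chaperone genes (32.2%) were lower and 17 (28.8%) were higher in shUSP9X. Over all 11448 genes tested, 33.6% were lower and 33.8% higher by the same test, so both shares of the chaperone genes were close to, and slightly below, those of all genes. Their median log2 fold change was -0.02 against -0.00 over all genes, and the median size of the change, without its sign, was 0.39 against 0.38. The cutoff of the study, fold changes over 1.5 at p under 0.05 without adjustment, was used there with DESeq2. Applied here to the edgeR fit, it gave 16 of the 59 chaperone genes as lower, beside 18.7% of all genes. It gave 4 of the 59 as higher, beside 10.8% of all genes. With the GC content and length offset described below, 10 were lower, beside 12.5% of all genes, and 1 higher, beside 11.8%, at that cutoff. The 4 higher genes without the offset were Dnajb1, Dnajc11, Hspe1 and Hspb6, and none of them passed the cutoff with it. The 1 higher gene with the offset was Dnajb14 (log2 fold change 1.09), which was called lower without it (-0.40). With DESeq2 and no offset, 14 chaperone genes were lower and 4 higher at the cutoff, and shares over all genes were not computed for that fit. The directions differed within and between classes, as the plot of log2 fold changes by class shows.

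**Figure D2:**
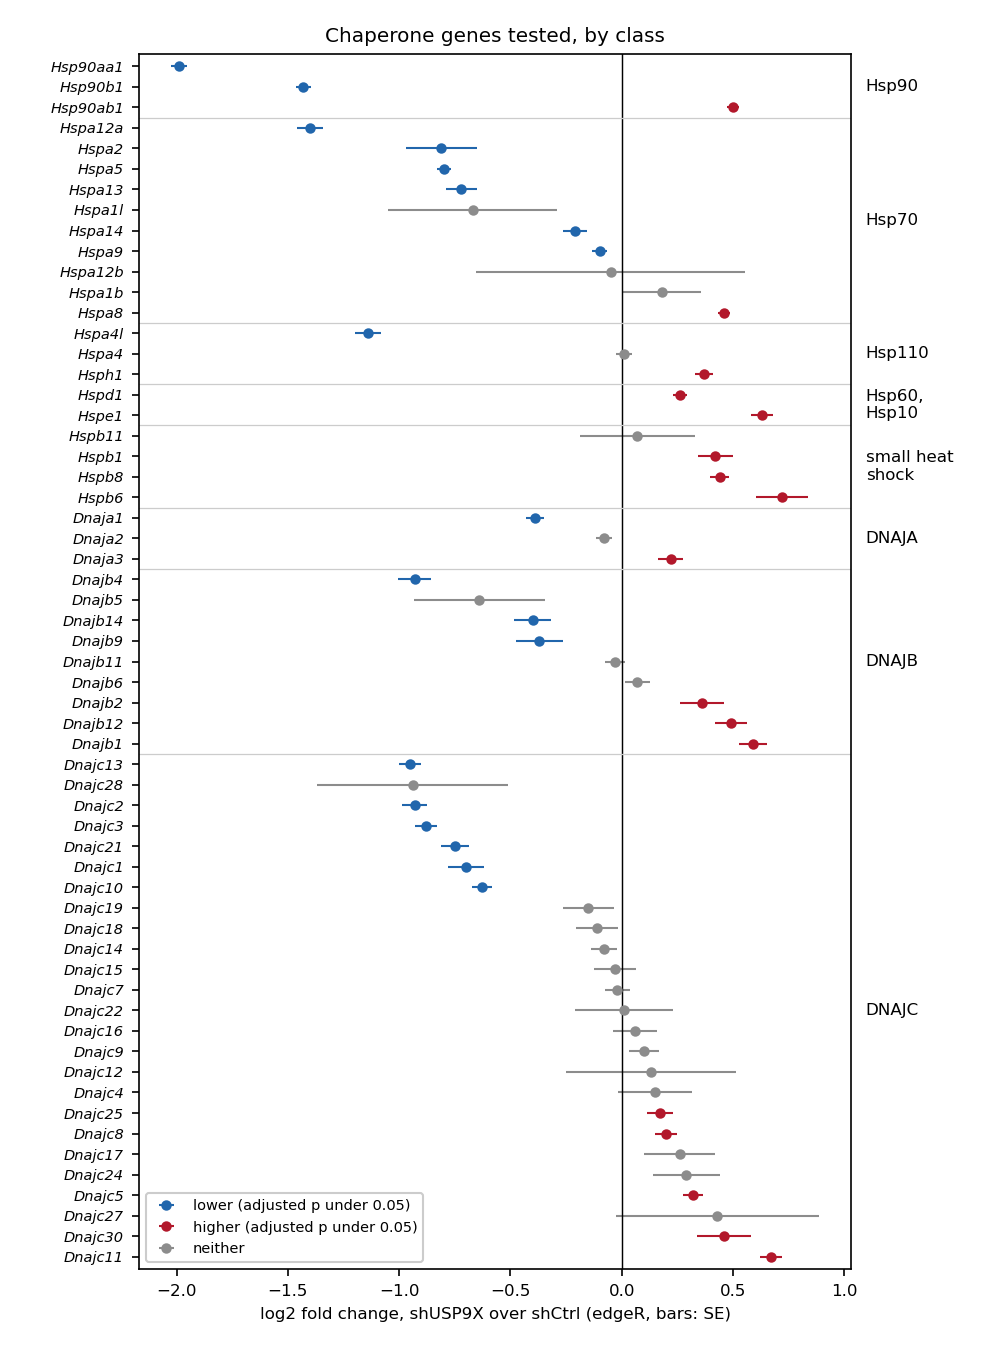
log2 fold change (shUSP9X over shCtrl, edgeR) of the 59 tested chaperone genes by class, with bars of 1 SE, in blue where lower, red where higher and grey where neither at an adjusted p under 0.05. Hsp90aa1 at -1.99 is the lowest and Hspb6 at 0.72 the highest.

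A property shared by the whole table bears on these counts. Across all genes tested, the log2 fold change followed the GC content of the transcript (Spearman's rho 0.444 over 11448 genes, 99.8% of them with a known GC content, all measured in the same libraries) and ran against its length (rho -0.309). The 1143 genes of lowest GC content (31.9% to 42.0%) had a median log2 fold change of -0.87, and the 1143 of highest GC content 0.18. The chaperone genes followed the same gradient (rho 0.561 with GC content and -0.38 with length over the 59 tested genes), and the median GC content of those called lower was 44.9% against 51.7% of those called higher. The part of GC content and length in the changes was not tested. Each value was therefore also computed with an offset that removes every library's trend on GC content and length. With it, 27.8% of all genes were lower and 36.3% higher, and of the chaperone genes 17 were lower and 22 higher, with a median log2 fold change of 0.09 against 0.04 over all genes. Of the 36 calls, 12 lower and 13 higher ones were the same with the offset, 5 were lost and 6 turned round from lower to higher (Hspa9, Hspa13, Dnaja1, Dnajb9, Dnajb14 and Dnajc13). With the offset computed on each gene's longest transcript, a choice made after seeing the data, Dnajc13 stayed lower (-0.28) and Hspa9 was not called (-0.01). Usp9x had a log2 fold change of -2.35 with the offset.

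**Figure D3:**
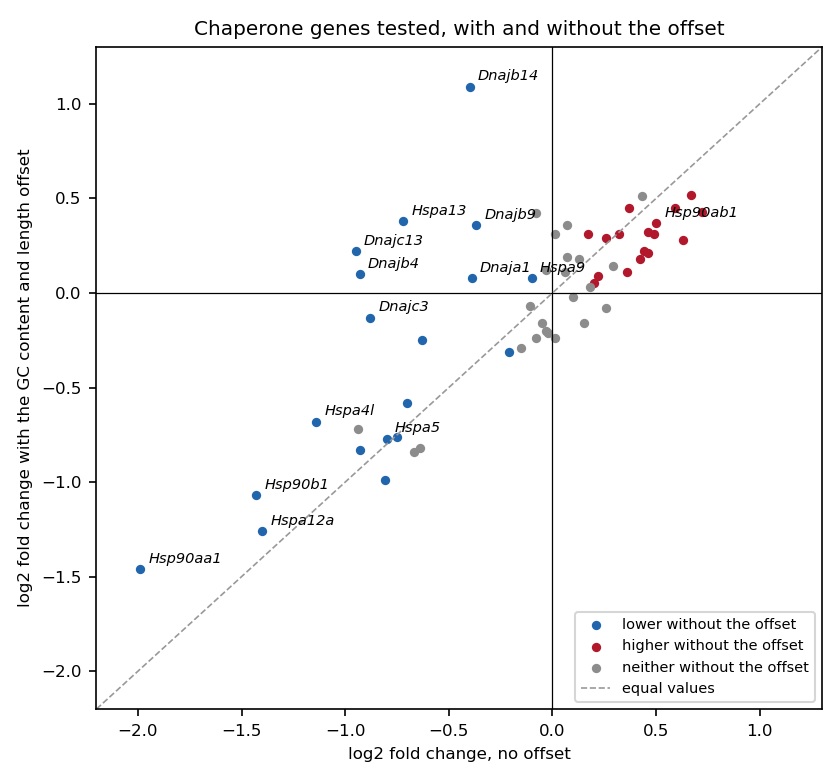
log2 fold change (shUSP9X over shCtrl) of the 59 tested chaperone genes without (horizontal) and with (vertical) the GC content and length offset, coloured by the call without it, and with a dashed line at equal values. Hsp90aa1, Hsp90b1, Hspa12a and Hspa5 stay low on both axes, while Dnajb14, Hspa13, Dnajb9 and Dnajc13 lie in the upper left, lower without the offset and higher with it.

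The Hsp90 genes showed the sharpest contrast. Hsp90aa1, the stress-inducible cytosolic Hsp90α (chr12:110690605-110702728), stood at 1588 and 1502 CPM in shCtrl and at 389.9 and 387.2 CPM in shUSP9X. The libraries of a group lay close together and the groups far apart, a fall of 3.98-fold (log2 fold change -1.99 ± 0.04 SE, edgeR adjusted p = 3.1e-25). It was the largest change of any chaperone gene tested, and with the offset it was -1.46. Hsp90ab1, the constitutive cytosolic Hsp90β (chr17:45567775-45573271), went the other way, from 3810 and 3707 CPM to 5334 and 5309 CPM. It rose by 0.50 ± 0.03 on the log2 scale (edgeR adjusted p = 2.8e-15), and by 0.37 with the offset. Hsp90b1, or GRP94, the Hsp90 of the ER (chr10:86690209-86705509), fell from 1435 and 1383 CPM to 529.5 and 518.7 CPM. Its log2 fold change was -1.43 ± 0.03 (edgeR adjusted p = 8.7e-23) and -1.07 with the offset. Per transcript length, Hsp90aa1 held 25.6% and 25.3% of the FPKM of both cytosolic Hsp90 genes in shCtrl and 5.71% and 5.72% in shUSP9X. The summed FPKM of the pair was 2055 and 1996 in shCtrl and 2223 and 2217 in shUSP9X, so the cytosolic sum was slightly higher while its composition moved toward Hsp90ab1. Hsp90b1 held 19.9% and 19.9% of the FPKM of the 3 Hsp90 genes in shCtrl and 7.7% and 7.58% in shUSP9X. All deposited counts of these 3 genes were whole numbers, whereas 9 chaperone genes had counts that were not whole.

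**Figure D4:**
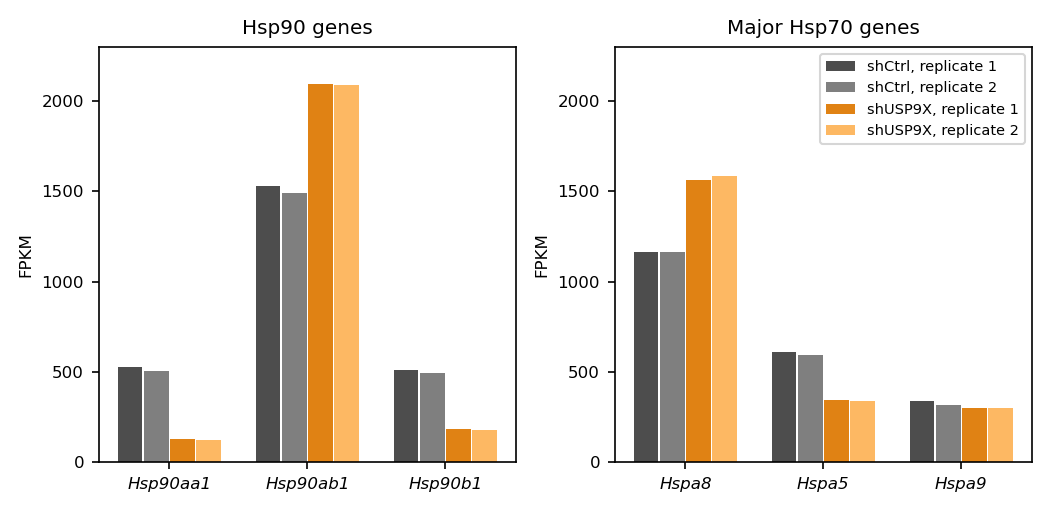
FPKM, on axes from 0, of the 3 Hsp90 genes (left) and of the 3 most abundant Hsp70 genes (right), with a bar for each library. Hsp90ab1 and Hspa8 are higher in both shUSP9X libraries (orange), Hsp90aa1, Hsp90b1 and Hspa5 are lower, and Hspa9 differs little.

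Among the 10 Hsp70 genes tested, 6 were lower and 1 was higher, with a median log2 fold change of -0.44 (-0.24 with the offset, where 4 were lower and 3 higher). The shares of all genes were 33.6% lower and 33.8% higher, and 27.8% and 36.3% with the offset. Hspa8, the constitutive cytosolic Hsc70 (chr9:40800984-40810087), was the one that rose, from 2767 and 2750 CPM to 3775 and 3834 CPM. Its log2 fold change was 0.46 ± 0.03 (edgeR adjusted p = 2.4e-14) and 0.32 with the offset. Hspa5, or BiP, the Hsp70 of the ER lumen (chr2:34771970-34777547), fell from 1689 and 1600 CPM to 948.3 and 941.7 CPM. This fall of 1.74-fold (log2 fold change -0.80 ± 0.03, edgeR adjusted p = 1.1e-17) was much the same with the offset, -0.77. Hspa5 thus made up 28.8% and 28.6% of the summed FPKM of Hspa5, Hspa8 and Hspa9 in shCtrl and 15.5% and 15.2% in shUSP9X. Hspa9, the mitochondrial Hsp70 mortalin, had 1029 and 960.9 CPM in shCtrl and 931.2 and 925.6 CPM in shUSP9X. That difference was small (log2 fold change -0.10 ± 0.03, edgeR adjusted p = 0.0115) and ranged from -0.14 to -0.04 when each library was left out. Its call was lost under upper quartile scaling, and the value was 0.08 with the offset.

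The remaining Hsp70 genes were less abundant. Hspa12a, a distant Hsp70 relative (chr19:58795750-58943654), had 112.3 and 108 CPM in shCtrl and 42.09 and 41.37 CPM in shUSP9X. Its log2 fold change was -1.40 ± 0.06 (edgeR adjusted p = 3.3e-17), and -1.26 with the offset, the largest fall in the class on both scales. Hspa2, a testis-enriched Hsp70, went from 13.15 and 16.38 CPM to 9.865 and 6.766 CPM (log2 fold change -0.81 ± 0.16, edgeR adjusted p = 7.2e-05, and -0.99 with the offset). Hspa13, a microsomal Hsp70, had 79.23 and 77.73 CPM in shCtrl and 44.22 and 51.64 CPM in shUSP9X. Its log2 fold change of -0.72 ± 0.07 (edgeR adjusted p = 6.7e-10) became 0.38 with the offset, so that its direction depended on it. Hspa14, which works with DNAJC2 at the ribosome, was modestly lower at -0.21 ± 0.06 (edgeR adjusted p = 0.00182, -0.31 with the offset).

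Of the heat-inducible Hsp70 genes, Hspa1b was tested and Hspa1a was not. Hspa1b had 7.9 and 11.51 CPM in shCtrl and 12.95 and 8.844 CPM in shUSP9X, and the groups overlapped (log2 fold change 0.18 ± 0.18, edgeR adjusted p = 0.365). Hspa1a and Hspa1b are nearly identical copies, both had counts that were not whole, and their split is uncertain. Even so, Hspa8 held between 99.6% and 99.8% of the summed FPKM of Hspa8, Hspa1a and Hspa1b in every library. Hspa1l had 1.961 and 2.087 CPM in shCtrl and 0.9106 and 1.662 CPM in shUSP9X (log2 fold change -0.67 ± 0.38, edgeR adjusted p = 0.119, and between -1.14 and -0.28 when each library was left out). The antisense gene Gm10501 overlaps 71.9% of the exonic bases of Hspa1l, and no strand was stated for the counting, so reads of the 2 cannot be told apart.

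The Hsp110 genes, whose proteins exchange nucleotide on Hsp70, moved in both directions. Hspa4l fell from 124.2 and 120 CPM to 53.32 and 57.81 CPM (log2 fold change -1.14 ± 0.06, edgeR adjusted p = 1.2e-15, -0.68 with the offset). Its direction depended on the transcript behind the offset, since it stood at 0.41 with the longest transcript, a choice made after seeing the data. Hsph1, or Hsp105, rose from 236.2 and 233.4 CPM to 307.9 and 298.8 CPM (log2 fold change 0.37 ± 0.04, edgeR adjusted p = 4.4e-09, 0.45 with the offset). Hspa4, the most abundant of the class, had 641.7 and 619.7 CPM in shCtrl and 640 and 632.8 CPM in shUSP9X. Its groups overlapped and its log2 fold change was 0.01 ± 0.03 (edgeR adjusted p = 0.752), though 0.31 with the offset (adjusted p = 3.6e-10).

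The mitochondrial chaperonin pair, whose proteins form the folding chamber of the matrix and its lid, was higher. Hspd1 (Hsp60) went from 1269 and 1203 CPM to 1476 and 1482 CPM (log2 fold change 0.26 ± 0.03, edgeR adjusted p = 5.9e-08, 0.29 with the offset). Hspe1 (Hsp10) went from 132.2 and 121 CPM to 200.4 and 192.8 CPM (log2 fold change 0.63 ± 0.05, edgeR adjusted p = 8.3e-12, 0.28 with the offset). In both genes each shUSP9X library was above each shCtrl library. Hspd1 and Hspe1 lie head to head on chromosome 1 (chr1:55077835-55088243 on the minus strand and chr1:55088132-55091307 on the plus strand) and share 112 exonic bases.

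Their common promoter holds letters of the heat shock element, the motif that HSF1 binds. GAANNTTCNNGAA was searched on both strands of the RefSeq promoter windows, from 250 bases before to 50 bases after each start site (build GRCm38.p6). Windows matched 58 of the 73 chaperone genes by symbol. The element was found in 4 of them (6.9%), namely Hspd1, Hspe1, Hsph1 and Dnajb6, against 0.662% of 27025 genes. The matches are shown because 3 of the 4 genes rose, with the 13 bases of the motif or of its reverse complement in capitals, on the strand of the named gene. Coordinates span all the letters printed. The motifs of the first 2 overlap by 8 bases (chr1:55088051-55088079 and chr1:55088056-55088084) and are the same bases for Hspd1, read on the other strand, the third lies at chr5:149636280-149636308, and the last at chr5:29735844-29735872.
Hspe1, 89 bases before the start: acggtccgTTCTAGAACCTTCcggaaggc
Hspe1, 84 bases before the start: ccgttctaGAACCTTCCGGAAggccccgc
Hsph1, 15 bases after one start and 36 after another: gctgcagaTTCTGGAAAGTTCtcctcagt
Dnajb6, 46 bases before one start and 127 before another: agctccgaGAATCTTCCGGAAcgctagac
Dnajb6, with 165.9 and 140.4 CPM in shCtrl and 163.4 and 158.7 CPM in shUSP9X, was not called (log2 fold change 0.07 ± 0.06, edgeR adjusted p = 0.266) but was higher with the offset (0.36), though at -0.06 with the offset on its longest transcript. Among all genes tested, 47 held the element, of which 8 were lower and 22 higher, with a median log2 fold change of 0.20 (10 lower, 20 higher and 0.10 with the offset), beside 33.6% lower and 33.8% higher of all genes. Without the chaperone genes, 8 of 43 were lower and 19 higher, with a median of 0.15 (10 lower, 16 higher and 0.09 with the offset). A match of letters describes the window and does not show binding. Only exact matches inside the window were searched, so a gene without one may still hold an imperfect or more distant element.

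Of the small heat shock genes, 4 of 8 were tested, 3 were higher and none was lower, with a median log2 fold change of 0.43 (0.21 with the offset). Over all genes 33.8% were higher and 33.6% lower, and 36.3% and 27.8% with the offset. Hspb8, a partner of BAG3 in the clearance of misfolded proteins, was the most abundant, and went from 163.2 and 171.8 CPM to 227.2 and 227 CPM (log2 fold change 0.44 ± 0.04, edgeR adjusted p = 1.1e-09, 0.22 with the offset). Hspb1 (Hsp27 in human, Hsp25 in mouse) went from 39.27 and 48.19 CPM to 59.55 and 56.74 CPM (log2 fold change 0.42 ± 0.08, edgeR adjusted p = 4.4e-05, 0.18 with the offset). Hspb6 (Hsp20), the lowest of these 3, went from 12.34 and 14.8 CPM to 23.37 and 21.31 CPM (log2 fold change 0.72 ± 0.12, edgeR adjusted p = 5.2e-06, 0.43 with the offset). For these 3 genes the groups did not overlap, and all were called higher with the offset too. Hspb11, which belongs to the ciliary transport machinery, had 2.941 and 3.921 CPM in shCtrl against 3.288 and 3.917 CPM in shUSP9X, and was not called (log2 fold change 0.07 ± 0.26, edgeR adjusted p = 0.824).

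DNAJA and DNAJB genes encode the classical Hsp70 co-chaperones and moved both ways. In DNAJA, Dnaja1, its most abundant gene, had 514.8 and 474.7 CPM in shCtrl and 372.6 and 381.7 CPM in shUSP9X (log2 fold change -0.39 ± 0.04, edgeR adjusted p = 1.5e-09, 0.08 with the offset). Dnaja3, or TID1, of the mitochondrion, was higher, from 72.66 and 68.18 CPM to 81.7 and 81.97 CPM (log2 fold change 0.22 ± 0.06, edgeR adjusted p = 0.0018), a call that the offset removed (0.09). In DNAJB, 3 of 9 tested genes were lower and 3 higher (2 lower and 5 higher with the offset). That was 33.3% each way without the offset, close to the 33.6% lower and 33.8% higher of all genes. With the offset the shares of all genes were 27.8% and 36.3%. Dnajb1 (Hsp40), the main heat-inducible partner of Hsp70, rose from 45.44 and 46.23 CPM to 69.66 and 68.43 CPM. Its log2 fold change was 0.59 ± 0.06 (edgeR adjusted p = 6.5e-09) and 0.45 with the offset. Dnajb12, a J-protein of the ER membrane, rose to a similar extent (0.49 ± 0.07, edgeR adjusted p = 1.4e-06, 0.31 with the offset). Dnajb2 was higher without the offset (0.36 ± 0.10, edgeR adjusted p = 0.00241) and not called with it (0.11).

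The 3 DNAJB genes called lower were not called lower with the offset. Dnajb4 fell from 59.05 and 66.41 CPM to 33.64 and 31.99 CPM (log2 fold change -0.93 ± 0.08, edgeR adjusted p = 2.5e-11) but stood at 0.10 with the offset, where it was not called. Dnajb14, of the ER membrane, had -0.40 ± 0.08 (edgeR adjusted p = 0.00014) without and 1.09 with the offset, the widest gap of any chaperone gene between the 2 fits. Its transcript is long (9476 bases) and its GC content low (42.4%). Dnajb9 (ERdj4), an ER protein that binds BiP, had -0.37 ± 0.11 (edgeR adjusted p = 0.00332, DESeq2 adjusted p = 0.0664) without and 0.36 with it. Dnajb5, at -0.64 and past the study's cutoff but not called at an adjusted p under 0.05, was called lower with the offset (-0.82, adjusted p = 0.0143).

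Of 25 tested DNAJC genes, 6 were lower and 5 higher, with a median log2 fold change of 0.01 (8 lower, 4 higher and -0.07 with the offset). Of all genes 33.6% were lower and 33.8% higher, and 27.8% and 36.3% with the offset. DNAJC proteins share little beyond the J domain, and the genes that fell serve different places. Dnajc2 (MPP11 or zuotin), which acts at the ribosome, had 108.1 and 103.1 CPM in shCtrl and 56.21 and 54.84 CPM in shUSP9X. Its log2 fold change was -0.93 ± 0.06 (edgeR adjusted p = 9.3e-14) and -0.83 with the offset, and it was accompanied by Dnajc21, of ribosome assembly (-0.75 ± 0.06, edgeR adjusted p = 7.2e-11, -0.76 with the offset). Dnajc3, Dnajc1 and Dnajc10 belong to the ER and are taken up with that group. Dnajc13, of the endosome, had 177.2 and 166.1 CPM in shCtrl and 87.12 and 91.4 CPM in shUSP9X, and its log2 fold change of -0.95 ± 0.05 (edgeR adjusted p = 4.9e-15) became 0.22 with the offset. Its transcript too is long, 7851 bases.

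The DNAJC genes that rose were led by Dnajc11, of the mitochondrial membrane complex that shapes cristae. It had 79.93 and 77.47 CPM in shCtrl and 125 and 126.4 CPM in shUSP9X (log2 fold change 0.67 ± 0.05, edgeR adjusted p = 7.1e-12, 0.52 with the offset). Dnajc30, also mitochondrial, was higher at 0.46 ± 0.12 (edgeR adjusted p = 0.00168) and not called with the offset, and 26.2% of its exonic bases are overlapped by Bud23 on the other strand. Dnajc5, the cysteine string protein of secretory vesicles, rose from 175.6 and 185.7 CPM to 231.1 and 220.9 CPM (0.32 ± 0.04, edgeR adjusted p = 3.5e-07, 0.31 with the offset). Dnajc8, of the spliceosome and the DNAJC gene with the highest mean FPKM, differed by 0.20 ± 0.05 (edgeR adjusted p = 0.00082) and by 0.05 with the offset, where the call was lost.

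Sorted by compartment, most ER genes among those matching the symbol rule were lower. Other ER chaperones and their partners are in the partner lists below and moved both ways. Among them Hyou1 rose (0.33, and 0.24 with the offset) and Sec63 fell (-1.28, and -0.45 with the offset). Calr was higher (0.15) and Canx lower (-0.33), and neither call was kept with the offset. Of 13 tested ER genes, 8 were lower and 1 (Dnajb12) was higher, with a median log2 fold change of -0.40, beside 33.6% lower and 33.8% higher of all genes. With the offset 7 were lower and 4 higher, beside 27.8% and 36.3% of all genes, with a median of -0.13. The summed level of the ER genes was 1402 and 1361 FPKM in shCtrl and 753.1 and 747.3 FPKM in shUSP9X, most of it Hspa5 and Hsp90b1. Dnajc3 (p58IPK), a co-chaperone of BiP, fell from 159.2 and 154.2 CPM to 83.93 and 86.12 CPM (log2 fold change -0.88 ± 0.05, edgeR adjusted p = 1.2e-14, -0.13 with the offset). Dnajc10 (ERdj5), a disulfide reductase, had 223.8 and 215.9 CPM in shCtrl and 145.2 and 138.4 CPM in shUSP9X (-0.63 ± 0.05, edgeR adjusted p = 1.8e-12, -0.25 with the offset). Dnajc1 (ERdj1) had -0.70 ± 0.08 (edgeR adjusted p = 1.6e-08) and -0.58 with the offset. Hspa5, Hsp90b1, Dnajc1, Dnajc3 and Dnajc10 were therefore lower in both fits. Dnajb11 (ERdj3) was not called without the offset (-0.03 ± 0.05, edgeR adjusted p = 0.55) and was lower with it (-0.20).

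The ER stress element, which ATF6 binds together with NF-Y, was searched in the same windows as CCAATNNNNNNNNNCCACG on both strands. It was found in 3 of the 58 chaperone genes with a window (5.17%), Hspa5, Hsp90b1 and Dnajc3, against 0.137% of 27025 genes. Their sites are shown because all 3 genes fell in both fits, with the motif or its reverse complement in capitals on the strand of the gene. They lie at chr2:34772017-34772051 for Hspa5, at chr10:86705525-86705559 and chr10:86705630-86705664 for Hsp90b1 (minus strand), and at chr14:118937819-118937853 for Dnajc3.
Hspa5, 65 bases before the start: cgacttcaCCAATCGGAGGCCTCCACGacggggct
Hsp90b1, 107 bases before the start: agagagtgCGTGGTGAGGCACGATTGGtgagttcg
Hsp90b1, 212 bases before the start: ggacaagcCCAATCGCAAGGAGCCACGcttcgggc
Dnajc3, 105 bases before the start: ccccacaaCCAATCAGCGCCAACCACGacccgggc
Among all genes tested, 14 held this element, of which 6 were lower and 3 higher, with a median log2 fold change of -0.13 (9 lower, 3 higher and -0.20 with the offset). Of the 11 that are not chaperone genes of this family, 3 were lower and 3 higher, with a median of -0.10 (6 lower, 3 higher and -0.13 with the offset). For comparison, 33.6% of all genes were lower and 33.8% higher, and 27.8% and 36.3% with the offset. A match of letters is again no evidence of binding, and a missing match no evidence that a gene lacks the element.

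Of 9 mitochondrial chaperone genes tested, 5 were higher (Hspd1, Hspe1, Dnaja3, Dnajc11 and Dnajc30) and 1 (Hspa9) was lower, with a median log2 fold change of 0.22 (4 higher, 1 lower and 0.12 with the offset), beside 33.8% higher of all genes and 36.3% with the offset. With the offset Hspa9 was among the higher genes, Dnaja3 and Dnajc30 were not, and the lower gene was Dnajc19. The direction of Dnajc19 was not stable, since it ran from -0.29 to 0.58 over the 17 alternatives. Dnajc28, at -0.94, was lower at the study's cutoff but not at an adjusted p under 0.05. The summed level of the 9 was 1156 and 1090 FPKM in shCtrl and 1292 and 1289 FPKM in shUSP9X. Among 6 tested genes of the ribosome, splicing and chromatin, 3 were lower and 1 higher (3 and 0 with the offset). Of 15 tested classical cytosolic and nuclear genes, 4 were lower (Hsp90aa1, Hspa4l, Dnaja1 and Dnajb4) and 5 higher (Hsp90ab1, Hspa8, Hsph1, Dnajb1 and Dnajb2), at a median of 0.01. With the offset 4 were lower and 8 higher, at a median of 0.11. The genes known as HSF1 targets did not share a direction. Of the 10 tested, 6 were higher (Hspa8, Hspd1, Hspe1, Hsph1, Dnajb1 and Hspb1) and 3 lower (Hsp90aa1, Dnaja1 and Dnajb4), with a median of 0.31, and the largest change among them was the fall of Hsp90aa1. With the offset 7 were higher and 1, Hsp90aa1, was lower. Of all genes 33.8% were higher and 33.6% lower, and 36.3% and 27.8% with the offset.

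The partners of these chaperones, were 81 distinct genes in 6 lists. Of the 78 tested, 20 (25.6%) were lower and 38 (48.7%) higher, beside 33.6% and 33.8% of all genes, and the median was 0.15 on the log2 scale. With the offset 20 were lower and 43 higher, beside 27.8% and 36.3% of all genes, with a median of 0.17. Of 17 Hsp70 co-chaperones, 11 were higher and 1 was lower, at a median of 0.27 (0.30 with the offset). Stip1 (HOP), which links Hsp70 to Hsp90 and was the most abundant, went from 452.6 and 434.6 CPM to 711.9 and 694.5 CPM. It rose by 0.66 ± 0.04 on the log2 scale (edgeR adjusted p = 3.9e-15) and by 0.49 with the offset. Without the offset Bag2, an inhibitor of the ubiquitin ligase CHIP, showed the largest rise of the list (0.69 ± 0.07, edgeR adjusted p = 4e-09). With the offset Bag2 stood at 0.48 and Grpel1 rose most (0.63). The gene that fell was Sec63, a J-protein of the ER translocon, from 170.2 and 156.9 CPM to 63.09 and 72.47 CPM (-1.28 ± 0.06, edgeR adjusted p = 2.3e-16, -0.45 with the offset).

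Of 14 genes listed as Hsp90 co-chaperones, 8 were higher and 4 lower, at a median of 0.25 (11 higher and 2 lower with the offset). The list includes Trap1, which is the mitochondrial Hsp90 itself and lay outside the symbol rule. Trap1 was higher in both fits (0.33 ± 0.05, edgeR adjusted p = 2.5e-06, 0.17 with the offset). Ppp5c, a phosphatase bound to Hsp90, rose by 0.78 ± 0.05 (edgeR adjusted p = 2e-13, 0.57 with the offset), and Fkbp4, an immunophilin of steroid receptor complexes, by 0.57 ± 0.04 (edgeR adjusted p = 2.5e-13, 0.34 with the offset). Ahsa2, related to the Hsp90 ATPase activator Aha1, fell by 0.46 ± 0.07 on the log2 scale (edgeR adjusted p = 1.8e-06, -0.25 with the offset), and was not called with the offset on its longest transcript (-0.13). The 14 genes of TRiC, the cytosolic chaperonin, and of prefoldin, which hands it actin and tubulin, included 10 that were higher and 2 that were lower, at a median of 0.34 (11 higher, 3 lower and 0.26 with the offset). For both lists the shares of all genes were 33.8% higher and 33.6% lower, and 36.3% and 27.8% with the offset. Cct5 (0.42 ± 0.03, edgeR adjusted p = 8.7e-12, 0.24 with the offset) and Pfdn2 (0.87 ± 0.07, edgeR adjusted p = 2.6e-11, 0.74 with the offset) rose in both fits, whereas Vbp1 was lower without the offset (-0.45 ± 0.06, edgeR adjusted p = 8.1e-07) and higher with it (1.29).

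Among the 4 tested genes of the heat shock factor list, 1 was lower and 2 were higher (0 and 1 with the offset). This stands beside 33.6% lower and 33.8% higher of all genes, and 27.8% and 36.3% with the offset. Hsf1 had 56.05 and 55.08 CPM in shCtrl and 69.36 and 70.45 CPM in shUSP9X, a rise of 0.33 ± 0.06 (edgeR adjusted p = 3.3e-05) that was not called with the offset (0.11). Hsf2 had 32.47 and 30.48 CPM in shCtrl and 24.69 and 27.54 CPM in shUSP9X (-0.27 ± 0.09, edgeR adjusted p = 0.0117, 0.38 with the offset), a call that DESeq2 did not make. Hsbp1, which binds HSF1, differed by 0.22 ± 0.07 (edgeR adjusted p = 0.00678) and by 0.01 with the offset, and was likewise not called by DESeq2. The 7 mitochondrial proteases and disaggregases included 4 that were higher and 2 that were lower (3 and 1 with the offset). Beside them, 33.8% of all genes were higher and 33.6% lower (36.3% and 27.8% with the offset). Clpp rose in both fits (0.64 ± 0.07, edgeR adjusted p = 2e-08, 0.33 with the offset) and Lonp1 fell in both (-0.23 ± 0.05, edgeR adjusted p = 7.1e-05, -0.39 with the offset), while Yme1l1, at 38% GC, had -1.44 ± 0.05 (edgeR adjusted p = 4.3e-19) without and 0.08 with the offset.

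Of 22 genes of the unfolded protein response, 10 were lower and 3 higher, at a median of -0.11 (12 lower, 6 higher and -0.10 with the offset), beside 33.6% lower and 33.8% higher of all genes (27.8% and 36.3% with the offset). Ddit3 (ENSMUSG00000025408), which encodes the stress factor CHOP, went from 18.68 and 19.61 CPM to 8.904 and 9.734 CPM (-1.04 ± 0.13, edgeR adjusted p = 4.6e-08, -1.40 with the offset). P4hb, the most abundant protein disulfide isomerase, differed by 0.02 ± 0.03 (edgeR adjusted p = 0.539, -0.14 with the offset). Derl3, of ER-associated degradation, was higher (2.62 ± 0.50, edgeR adjusted p = 4.6e-05) but at no more than 2.2 CPM in any library. It stood at 2.03 without shCtrl replicate 1, 3.54 without shCtrl replicate 2 and 1.03 by limma-trend on log2(FPKM + 1) with no filter.

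**Figure D5:**
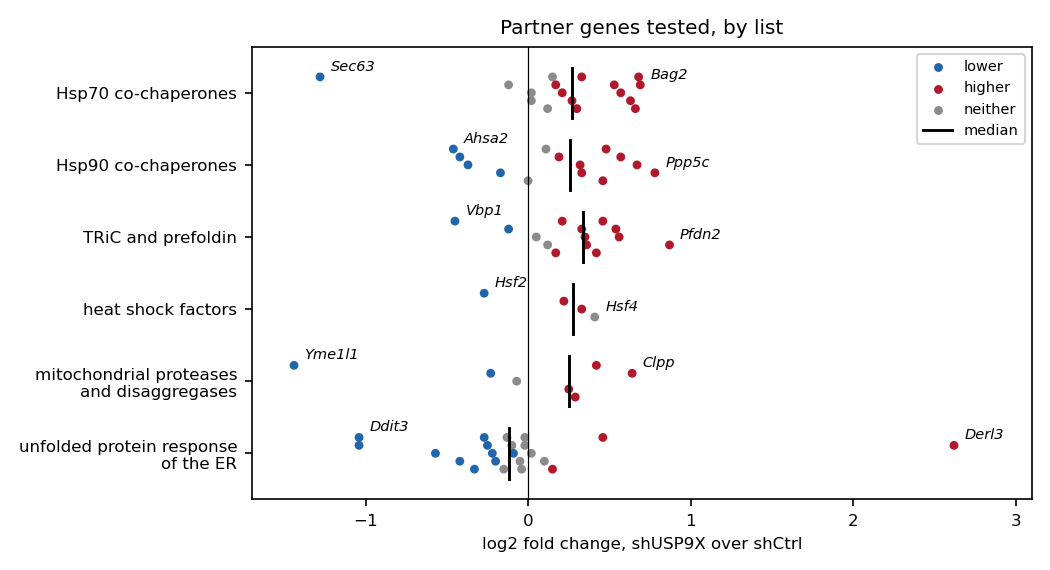
log2 fold change (shUSP9X over shCtrl) of the 78 tested partner genes by list, coloured by call, with a black bar at each list's median and the lowest and highest gene of each list named. The medians lie between 0.25 and 0.34 in 5 lists and at -0.11 in the unfolded protein response.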

How the data were processed

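Total RNA of ID8 cells was enriched for poly(A) RNA and sequenced as 4 libraries, grouped by the condition in their labels. The submitters' processing notes name fastp 0.18.0, Bowtie2 2.2.8, HISAT2, StringTie 1.3.1 and RSEM, with no role or order, and the methods of the study name GRCm38. The annotation release and the strand setting are not given in the sources used here. The authors deposited expected counts per gene and library, not normalized, of which between 6.39% and 6.69% were not whole numbers in a library. The authors also deposited FPKM values. For 568 genes with a single transcript, the length implied by count and FPKM was within 1% of the GENCODE M21 length in 97.7%.

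Expected counts were rounded to whole numbers, filtered with filterByExpr and scaled by TMM. In R 4.3.3, edgeR 4.0.16 fitted the 11448 remaining genes without a block (glmQLFit, glmQLFTest), and Benjamini-Hochberg adjustment ran over all of them. The common biological coefficient of variation was 0.0352. Coordinates and GC content came from GENCODE M21, which held 21973 of the 22063 identifiers and all 73 chaperone genes. GC content and length were those of the transcript nearest to the length implied by the FPKM, and the offset removed each library's loess trend (span 0.3) on both. Floors of 3 counts cover counting error only. On simulated data with 200 genes changed by 1 on the log2 scale, 98.5% were recovered and 11 of 11132 unchanged genes were called. When a linear trend on GC content was simulated as well, false calls numbered 5956 unless the offset was used, and 5 when it was. A smooth trend of that kind is what the offset is built to remove. No trend on length was simulated, so the length part of the offset was not tested in this way.

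The chaperone genes and all gene lists were chosen with earlier results of these data known. Genes named are Usp9x, the genes of the heat shock classes with a mean of at least 1 CPM, up to 3 falls, 3 rises and the most abundant gene of each DNAJ class, and the largest fall, largest rise and most abundant gene of each partner list. The rule also names Hsf1 and Hsf2 whatever their change. Other genes were chosen after their values were seen. Alternatives were DESeq2 1.42.0, other scalings and filters, limma-trend (limma 3.58.1) on log2(FPKM + 1) and log2(FPKM + 0.1), a replicate block, the offset, and each library left out. Promoter windows on chromosome 18 and protein features were not analysed here.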

Additional observations from a re-analysis of the deposited data

How the results depend on the processing

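The counts of chaperone genes changed, lower or higher, stayed within 1.5 times the reported ones under all 17 alternatives, between 34 and 39 changed, as did the counts over the whole table. At the study's cutoff, 10 chaperone genes were lower and 1 higher with the GC content and length offset, with or without the replicate block (12.5% and 11.8% of all genes without it), and 9 and 1 (12.7% and 11.5% of all genes) with the offset on each gene's longest transcript, an alternative chosen after seeing the data. The median log2 fold change of the chaperone genes was 0.09 under the first 2 of these fits, 0.06 under the third, 0.02 under upper quartile scaling and -0.05 with library size only. Leaving out each library gave -0.06 to 0.01, the ends being without shCtrl replicate 2 and without shCtrl replicate 1. Each single gene or class gave 1 value under each alternative, so the same gene can be counted several times. Of these values, 53 changed sign, 33 lost and 8 gained a call, 51 moved beyond the spread and 955 did not.

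The sign changes listed next are those of the genes named by the rule above and of class medians. Dnaja2, Chordc1, Sugt1, Atf6 and Canx were among other genes that changed sign with the offset. The listed sign changes under the offset, alone and together with the replicate block, were Dnaja1 0.08, Dnajb4 0.10, Dnajb9 0.36, Dnajb14 1.09, Dnajc13 0.22, Hspa9 0.08, Hspa13 0.38, Vbp1 1.29, Hsf2 0.38, Yme1l1 0.08 and P4hb -0.14, and among class medians DNAJA 0.09, DNAJB 0.31 (from -0.03) and DNAJC -0.07 (from 0.01). With the longest transcript they were Dnaja1 0.52, Dnajb4 0.04, Dnajb6 -0.06, Dnajb9 0.30, Dnajb14 0.88, Hspa4l 0.41, Hspa13 0.23, Hspa1b -0.00, Vbp1 1.22, Hsf2 0.31 and P4hb -0.16, and the DNAJA median was 0.29. That choice rests on transcript lengths unlike those behind the FPKM, so the fall of Hspa4l (-1.14, and -0.68 with the offset) depends on the transcript taken. The cause of the other changes was not tested. Genes near 0 changed sign elsewhere, with Hspa4 -0.02 and P4hb -0.01 under library size only, and Dnajb6 -0.00, Hspa4 -0.02 and P4hb -0.00 in the 3 limma-trend fits on FPKM. When each library was left out, values ranged from -0.12 to 0.48 for Hspa1b, -0.12 to 0.29 for Hspb11, -0.04 to 0.21 for Dnajb6 and -0.01 to 0.05 for Hspa4. Hspa9 ranged from -0.14 to -0.04 and Hsf2 from -0.34 to -0.19. In each of these fits 1 group held a single library, so only the other group gave the spread. Calls of single genes from them are therefore not given. DESeq2 did not call Hsf2, Hsbp1 or Dnajb9.

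The replicate numbers were not shown to pair the libraries (correlation of same-numbered deviations -0.0453). With the replicate block 19 chaperone genes were lower and 17 higher, and it changed no call at an adjusted p under 0.05, while at the study's cutoff 14 were lower in place of 16, without Dnajb5 and Dnajc28. Depth limits the 14 genes not tested and those under about 1 CPM.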

Other observations

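The transcript length implied by a gene's count and FPKM differed between the groups in some chaperone genes. For Dnajc15, a J-protein of the mitochondrial inner membrane, the counts of the groups overlapped (26.87 and 25.61 CPM in shCtrl, 26.11 and 25.4 CPM in shUSP9X), but the implied length was 2936 and 2203 bases in shCtrl and 1615 and 1669 bases in shUSP9X. Its FPKM was accordingly 9.211 and 11.777 in shCtrl and 15.995 and 15.064 in shUSP9X. Other genes with smaller differences and no overlap included Dnaja1 and Dnajc13. Hspa4l, Hspa12a and Dnajc1, called lower by their counts, are given for the size of the difference. For Hspa4l the implied length was 5107 and 4885 bases in shCtrl and 3506 and 3562 bases in shUSP9X, for Hspa12a 5276 and 5153 against 4611 and 4448 bases, and for Dnajc1 2969 and 3208 against 2685 and 2589 bases. The implied lengths of the groups did not overlap in Dnajc15 or in these 3 genes. By contrast Hsp90b1, Hspa4, Dnajc3 and Hspe1 had the same implied length in all 4 libraries (2825, 4618, 5141 and 774 bases). The lengths are estimates of the authors' isoform quantification and carry no error of their own, so these differences were not tested.

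Of the partner genes, Chordc1, an Hsp90 co-chaperone, held the heat shock element in its promoter window and changed sign with the offset (-0.42 without and 1.33 with it). The ER stress element was held by Calr, Canx, Creld2, Derl3, Pdia6 and Syvn1, whose log2 fold changes ran from -0.33 for Canx to 2.62 for Derl3. None of these was chosen before its value was seen.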
